A study of Mus musculus with 25 samples.

Results

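A set of 8 genes on the chromosomes of the deleted apolipoprotein genes had different mean levels in EKO and DKO aortas on both diets and at both times. Nnmt lies on chromosome 9, as Apoa1 does, and Blvrb, Lgals4, 2200002D01Rik, Zfp30, Zfp14, Alkbh6 and Sbsn lie on chromosome 7, as Apoe does. They are 8 of the 23284 genes in the table and were chosen by their symbols, their linkage to Apoe or Apoa1 and a difference between EKO and DKO of 1 direction in all diet and time groups. The values that chose them are therefore their EKO and DKO levels, so the difference between the genotypes is given here as a description, with no test. RNA of whole aortas of male C57/BL6J mice was sequenced in 25 libraries, in 8 groups of 3 replicates, apart from the 4 replicates of DKO mice fed NLD for 6 weeks. EKO mice lack Apoe, and DKO mice lack Apoe and Apoa1, so that every mouse here carries the Apoe deletion. NLD is the normal laboratory diet (chow), WD the Western-type diet, and each was fed for 6 or 22 weeks from 8 weeks of age. EKO mice were bought as a line and DKO mice were generated in an earlier study. The EKO libraries are labelled as a re-analysis of earlier samples and the DKO libraries are not, so source, processing and genotype cannot be told apart.

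A knockout line made in embryonic stem cells of one mouse strain and then crossed to another keeps a stretch of the first strain's chromosome around the deleted gene. Genes in that stretch, called passenger genes, can carry other alleles than the same genes in a line without it, and crossing narrows the stretch slowly because it is inherited with the deletion. The length of the stretch can differ between lines that carry the same deletion. FPKM values hold no sequence, so which strain's alleles these mice carry was not measured, and a part of passenger alleles in the differences below was not tested. The reads were aligned to mm10, the reference genome of the mouse.

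The 8 genes have unlike roles. Nnmt encodes nicotinamide N-methyltransferase, which passes a methyl group from S-adenosylmethionine to nicotinamide. Blvrb encodes biliverdin reductase B, also known as flavin reductase, an enzyme abundant in red blood cells. Lgals4 encodes galectin-4, a sugar-binding protein of gut epithelium. Zfp14 and Zfp30 encode zinc finger proteins of the KRAB class, which bind DNA and recruit the corepressor encoded by Trim28. Alkbh6 encodes a member of the AlkB family of dioxygenases, and Sbsn encodes suprabasin, a protein of stratified epithelium.

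On mm10, Nnmt spans 48538002 to 48607655 on chromosome 9 and starts 2.31 Mb from the start of Apoa1. On chromosome 7, in order from Apoe, lie Blvrb from 27447978 to 27465981 at a distance of 7.75 Mb, Lgals4 from 28833122 to 28841710 at 9.14 Mb and 2200002D01Rik from 29247521 to 29248467 at 9.55 Mb. Further along are Zfp30 from 29783968 to 29794703 at 10.09 Mb, Zfp14 from 30036357 to 30051396 at 10.34 Mb, Alkbh6 from 30308753 to 30314303 at 10.61 Mb and Sbsn from 30732674 to 30756134 at 11.04 Mb. The 7 genes thus lie in a run of 3.28 Mb, all on the same side of Apoe, and each is annotated as protein coding.

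The promoters of 4 of these neighbours are shown because their genes differed between EKO and DKO in opposite directions although they lie within a few megabases, Blvrb and Zfp14 higher and Lgals4 and Alkbh6 lower in EKO. Each run is 300 bases of GRCm38.p6 from RefSeq, 250 before and 50 after the start that its promoter table gives. For Lgals4 that start lies inside the span given above, and the last 30 bases of its window were in none of the GENCODE transcripts of the gene, unlike those of the other 3. Capitals mark matches, on either strand, to CCAAT, to GGGCGG or to CCGGAAG. The windows are chr7:27447728-27448027 on the forward strand for Blvrb, chr7:30051347-30051646 on the reverse strand for Zfp14, chr7:28833544-28833843 on the forward strand for Lgals4 and chr7:30308503-30308802 on the forward strand for Alkbh6.
Blvrb: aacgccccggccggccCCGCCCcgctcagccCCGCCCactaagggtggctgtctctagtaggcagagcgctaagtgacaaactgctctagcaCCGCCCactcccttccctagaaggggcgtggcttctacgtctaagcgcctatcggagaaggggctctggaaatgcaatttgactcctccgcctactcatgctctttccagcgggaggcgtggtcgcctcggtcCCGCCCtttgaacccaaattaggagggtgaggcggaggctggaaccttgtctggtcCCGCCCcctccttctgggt
Zfp14: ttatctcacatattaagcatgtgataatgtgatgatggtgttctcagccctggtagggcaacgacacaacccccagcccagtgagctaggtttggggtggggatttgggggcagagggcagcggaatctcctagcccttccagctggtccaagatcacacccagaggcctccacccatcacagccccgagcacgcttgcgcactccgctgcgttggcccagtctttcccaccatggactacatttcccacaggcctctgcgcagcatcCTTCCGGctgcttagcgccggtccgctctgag
Lgals4: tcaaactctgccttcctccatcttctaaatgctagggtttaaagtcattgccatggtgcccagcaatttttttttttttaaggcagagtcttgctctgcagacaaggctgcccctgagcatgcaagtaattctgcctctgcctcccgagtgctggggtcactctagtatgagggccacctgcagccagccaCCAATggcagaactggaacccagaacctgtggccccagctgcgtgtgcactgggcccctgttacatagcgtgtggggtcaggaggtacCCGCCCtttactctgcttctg
Alkbh6: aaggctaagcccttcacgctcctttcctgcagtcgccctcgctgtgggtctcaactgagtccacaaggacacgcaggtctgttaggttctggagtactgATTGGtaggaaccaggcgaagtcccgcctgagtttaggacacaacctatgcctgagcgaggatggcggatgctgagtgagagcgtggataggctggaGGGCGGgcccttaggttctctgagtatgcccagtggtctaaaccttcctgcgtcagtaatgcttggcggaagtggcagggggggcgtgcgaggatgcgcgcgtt

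Blvrb held 5 matches to GGGCGG and 20 CpG pairs, Zfp14 held 1 match to CCGGAAG and 12 CpG pairs, Lgals4 held 1 match each to CCAAT and GGGCGG and 4 CpG pairs, and Alkbh6 held 1 match each to CCAAT and GGGCGG and 17 CpG pairs. Of 32851 mouse promoters of the same length, 37.4% held CCAAT, 35.7% GGGCGG, 8.86% CCGGAAG and 13.6% TATAAA, and the median promoter had 7 CpG pairs. None of the matches overlapped another, and TATAAA was in none of the 7 member promoters in the table. Of the members not shown, Zfp30 held 1 match to CCAAT, 2200002D01Rik held 1 match to CCGGAAG, Sbsn held none, and Nnmt has no entry in the table. No motif was common to all promoters of the genes higher in EKO or to all of those lower in EKO, although Lgals4 and Alkbh6 held the same 2. A match is a description of letters and says nothing of whether a factor binds there.

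Some facts about the libraries bear on every value. Levels are in FPKM, a share of the sequenced fragments corrected for transcript length, from which the number of reads behind a value cannot be recovered, so depth is unknown. In replicate 2 of EKO on WD at 22 weeks, 68.5% of the 8693 genes over 5 FPKM in both other replicates were listed at 0, and this included all 8 members. Its zeros were taken as missing, so that EKO on WD at 22 weeks has n = 2 below, and this is called the incomplete library. The 5 other EKO libraries at 22 weeks had FPKM sums of 448239 to 556933 and Ppia at 1029.8 to 1347.8 FPKM, against 360421 to 415555 and 449.9 to 842.5 FPKM in the other 19. Markers of smooth muscle, endothelium and adipocytes were above 0 in all 24 other libraries. Averaged over diets and times, none of the 4 smooth muscle, 4 fibroblast, 5 adipocyte and 3 skeletal muscle markers was called between EKO and DKO in limma, while Kdr of 4 endothelial and Elovl3 of 3 brown fat markers were lower in EKO. In whole aorta, fewer cells of a type and less RNA per cell cannot be told apart. Apoa1 was between 0 and 1.97 FPKM in EKO and between 0.135 and 1.08 FPKM in DKO, too low to check the labels. Apoe RNA was listed between 3.75 and 20.7 FPKM in EKO and between 2.97 and 10.7 FPKM in DKO although all mice carry its deletion.

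The genotypes are called apart in a group below where every EKO library was above, or every one below, every DKO library. Of the 12797 genes whose mean reached 1 FPKM, EKO was above DKO in this way for 3.96% on NLD at 6 weeks, 8.07% on WD at 6 weeks, 20.7% on NLD at 22 weeks and 31.4% on WD at 22 weeks. EKO was below for 3.16%, 2.69%, 9.73% and 9.22% of them in the same order. In all 4 groups at once, 0.219% had EKO above and 0.0625% had EKO below, together 0.281%. Since that pattern chose the 8 genes, nothing is read from their own counts.

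Nnmt differed most among the 8, higher in EKO in each group. On NLD at 6 weeks, Nnmt was at 29.4, 31.0 and 37.4 FPKM in EKO and at 7.03, 11.6, 13.7 and 9.09 FPKM in DKO. On WD at 6 weeks, it was at 45.2, 43.2 and 26.9 FPKM in EKO and at 10.5, 11.5 and 11.4 FPKM in DKO. Every EKO library was above every DKO library at 6 weeks. At 22 weeks, the NLD libraries had Nnmt at 41.4, 52.2 and 46.7 FPKM in EKO and at 22.3, 9.67 and 15.3 FPKM in DKO. The later WD group had Nnmt at 54.5 and 33.2 FPKM in EKO and at 10.3, 8.34 and 8.87 FPKM in DKO. The lowest of the 11 EKO libraries, at 26.9 FPKM, was thus above the highest of the 13 DKO libraries, at 22.3 FPKM, whatever the diet or time. The ratio of the EKO to the DKO group mean ranged from 2.97 to 4.78, and the difference over the mean of the 4 groups was 1.74 on log2(FPKM + 1) with a standard error of 0.13. That scale understates the change of low genes. Within each genotype, the ranges of groups next to each other in mean level overlapped, and the only step without overlap in the order of the 8 groups lay between EKO and DKO.

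Lgals4 was the mirror image, lower in EKO by the largest margin of the 7 members on chromosome 7. On NLD at 6 weeks, Lgals4 was at 3.65, 5.47 and 4.85 FPKM in EKO and at 8.3, 8.73, 8.5 and 9.63 FPKM in DKO. On WD at 6 weeks, it was at 2.95, 3.99 and 3.91 FPKM in EKO and at 8.34, 14.3 and 12 FPKM in DKO. The EKO libraries stayed under the DKO libraries in both groups, and DKO on WD was more scattered than DKO on NLD. With 22 weeks of NLD, Lgals4 was at 4.3, 5.96 and 6.89 FPKM in EKO and at 10.6, 9.75 and 20.7 FPKM in DKO. With 22 weeks of WD, the levels were 2.32 and 4.41 FPKM in EKO and at 13.3, 11 and 16.7 FPKM in DKO. The highest EKO library, at 6.89 FPKM, was below the lowest DKO library, at 8.3 FPKM, so Lgals4, like Nnmt, was apart over all libraries at once. The DKO group means were 1.89 to 4.07 times those of EKO, and the mean difference was -1.27 on log2(FPKM + 1) with a standard error of 0.13.

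**Figure D1:**
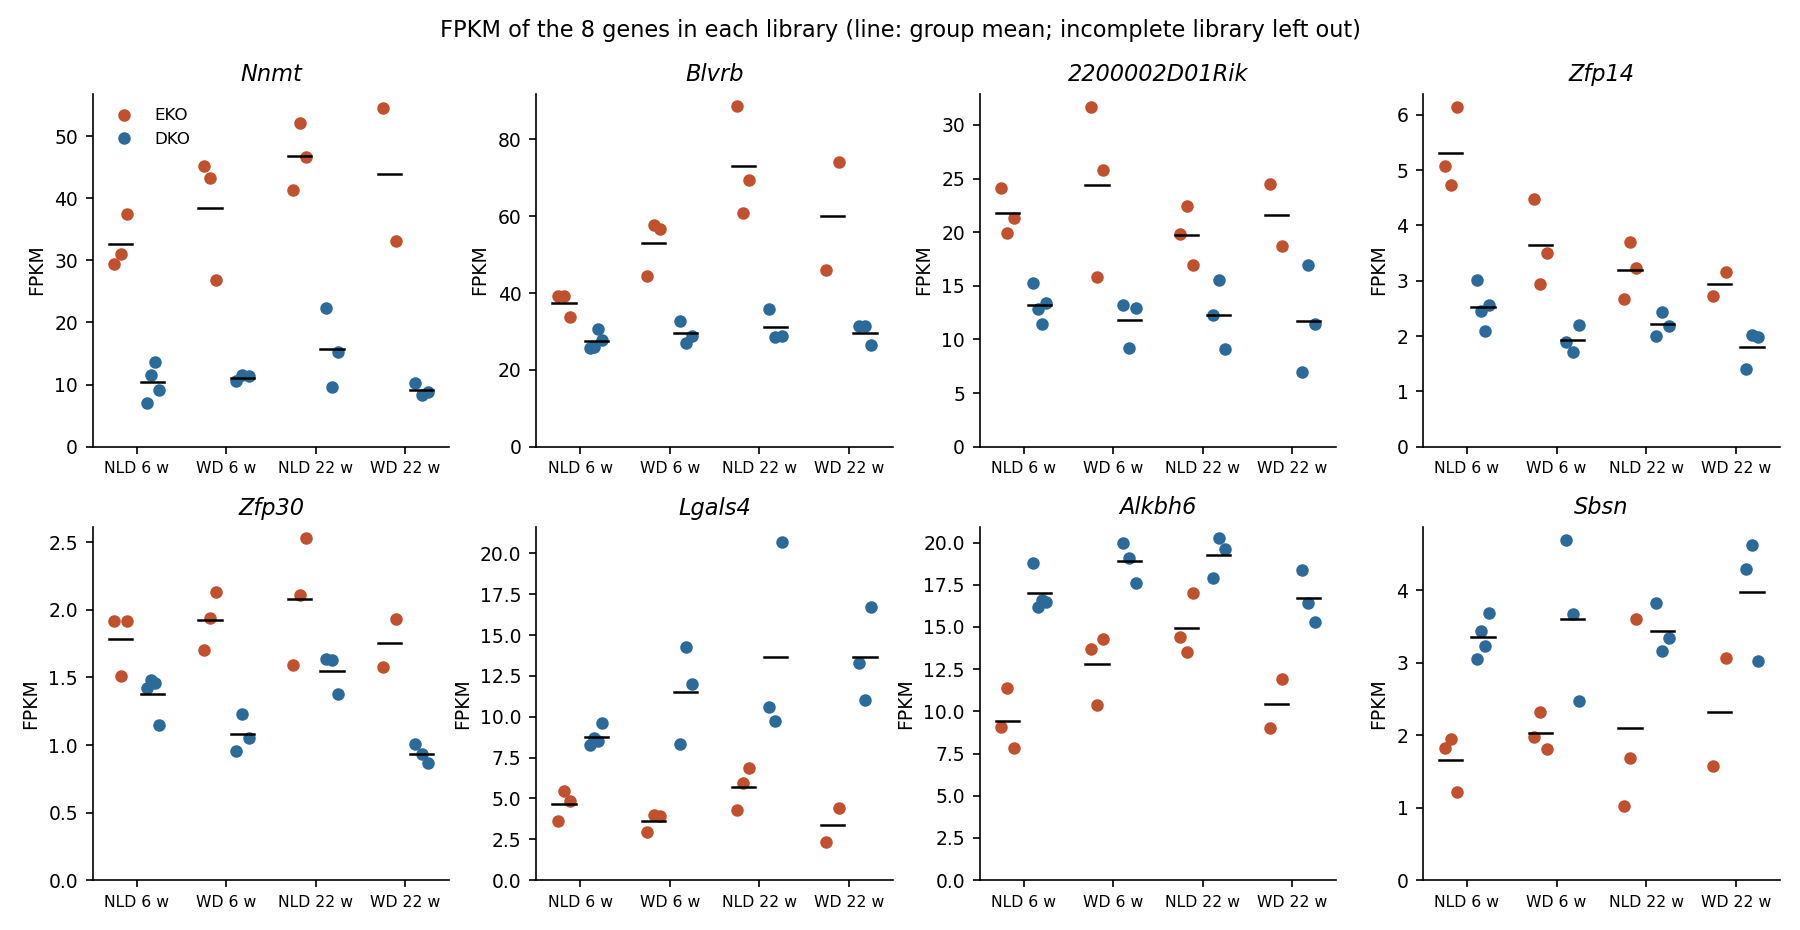
FPKM of each of the 8 genes (panels) in each library by diet and time (horizontal axis), with EKO in orange-red, DKO in blue and group means as black lines; w stands for weeks and the incomplete library is left out. Nnmt in EKO lies between 26.9 and 54.5 FPKM, above all DKO libraries at 7.03 to 22.3 FPKM, while Zfp30 and Sbsn overlap between the genotypes at 22 weeks.

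The table also has a row for Lgals6, a near-identical copy of Lgals4 that some mouse strains carry beside it and others lack. It was looked at after its values were seen, and it was not placed on mm10 by the RefSeq gene table. Lgals6 was at a median of 0.317 FPKM in EKO, between 0 and 2.98 FPKM, and at a median of 3.03 FPKM in DKO, between 0 and 6.83 FPKM. It was under 0.01 FPKM in 4 of 11 EKO libraries, and in DKO the only library at 0 was replicate 3 on WD at 22 weeks. The genotypes were apart for Lgals6 in 2 of the 4 groups. Since the copies share sequence, reads could have been split between them in the authors' counting, so the sum of both rows was taken too. The sum was between 2.32 and 9.87 FPKM in EKO and between 9.51 and 23.7 FPKM in DKO, and it was apart in 4 of 4 groups, as Lgals4 alone was. Whether DKO mice carry Lgals6 was not tested.

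**Figure D2:**
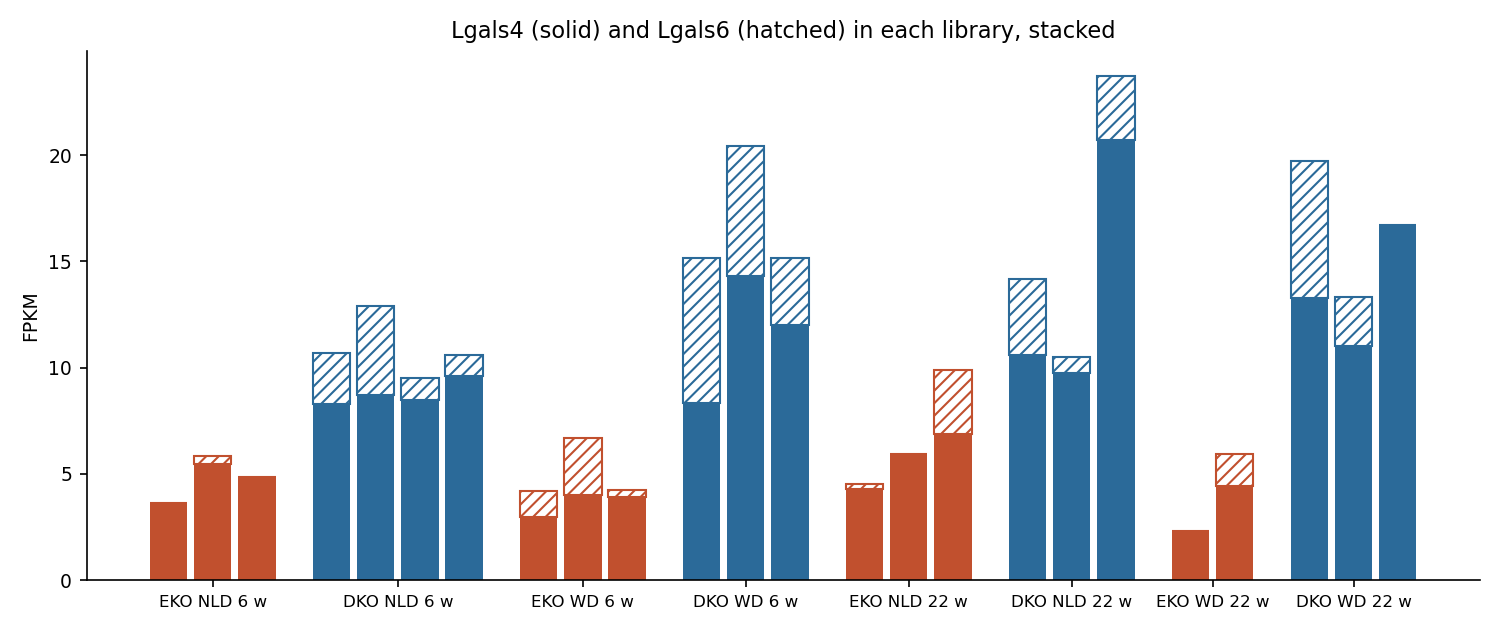
FPKM of Lgals4 (solid) with Lgals6 stacked on it (hatched) in each of 24 libraries (bars), grouped by genotype, diet and weeks (w), with EKO in orange-red and DKO in blue. The stacked sum is at most 9.87 FPKM in EKO and at least 9.51 FPKM in DKO.

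Epithelial cells of the kinds known for Lgals4 and Sbsn were scarce by their markers. Of 6 markers of simple epithelium, 3 reached a mean of 1 FPKM, and the medians over libraries of Epcam, Cdh1 and Cldn4 were 0.0379, 0.143 and 0.0283 FPKM. Of 7 markers of stratified epithelium, only Dmkn reached that mean, and Krt5, a keratin of basal cells, was at 0 in 14 libraries. None of the markers tested in these lists was called between EKO and DKO in limma. The sum of the simple epithelium markers was 7.36 to 11 FPKM in EKO and 8.01 to 12.4 FPKM in DKO on NLD at 6 weeks, where Lgals4 did not overlap, and was highest, at 95.1 FPKM, in 1 DKO library on WD at 22 weeks. The part of epithelial cells in the levels of Lgals4 and Sbsn was not tested.

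Blvrb was higher in EKO by 0.43 to 1.2 on log2(FPKM + 1) across the 4 groups. On NLD at 6 weeks, Blvrb was at 39.2, 39.1 and 33.8 FPKM in EKO and at 25.8, 26.0, 30.7 and 27.9 FPKM in DKO. On WD at 6 weeks, it was at 44.5, 57.6 and 56.7 FPKM in EKO and at 32.7, 27.1 and 28.9 FPKM in DKO. The groups did not overlap, but on NLD the gap between the lowest EKO and the highest DKO library was only 0.14 on the log2 scale. On NLD at 22 weeks, Blvrb was at 88.8, 60.9 and 69.4 FPKM in EKO and at 35.8, 28.6 and 28.7 FPKM in DKO. In the WD groups at 22 weeks, it was at 46.1 and 74.1 FPKM in EKO and at 31.4, 31.3 and 26.4 FPKM in DKO. DKO stayed between 25.8 and 35.8 FPKM in all 13 libraries, a coefficient of variation of 10%, while EKO ranged from 33.8 to 88.8 FPKM with a coefficient of variation of 30.7%. The ratio of group means was between 1.35 and 2.35, and the mean difference was 0.85 on log2(FPKM + 1) with a standard error of 0.08.

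Red cell markers were higher in EKO on average, as Blvrb was, but their sums overlapped in 2 of the 4 groups. All 4 red cell markers of the list were higher in EKO over the mean of the 4 groups, where limma called 15.8% of all tested genes higher and 2.07% lower in EKO. Hbb-b1, a beta globin gene, differed by 2.29 on log2(FPKM + 1) (SE 0.43, adjusted p = 0.00086), and Alas2, the first enzyme of heme synthesis in red cells, by 1.11 (SE 0.32, adjusted p = 0.019). The sum of the 4 markers was 4808.4 to 5741.4 FPKM in EKO and 1648.1 to 6204 FPKM in DKO on NLD at 6 weeks, and 10989.9 to 24506.3 FPKM in EKO and 1727 to 5301.6 FPKM in DKO on NLD at 22 weeks. In the WD groups at that time, the sums were 8485.3 to 14376.4 FPKM in EKO and 1961.9 to 15361.4 FPKM in DKO. The sums overlapped on NLD at 6 weeks and on WD at 22 weeks and were apart in the other groups, with 4786.6 to 7694.9 FPKM in EKO and 1856.4 to 3047.1 FPKM in DKO on WD at 6 weeks. The list does not hold Hbb-b2, a close copy of Hbb-b1 on chromosome 7, which was looked at after its values were seen. Its difference was -0.74, with a median of 1942.6 FPKM in EKO and 1249.5 FPKM in DKO, and it was listed at 0 in 1 EKO library on WD at 22 weeks, the one with Hbb-b1 highest at 5391.5 FPKM. Reads of the pair could have been split between the copies, so the values of both are uncertain. With Hbb-b2 added to the sum, the same 2 groups overlapped, while Blvrb was apart in all 4. The part of red cells in the level of Blvrb was not tested.

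Of the 13 other heme genes tested, 2 were called higher in EKO, Alas2 and Hmox1, and none lower, where 17.9% of all tested genes were called in either direction, and their median difference was 0.02. Hmox1, the heme oxygenase that makes biliverdin, was at a median of 19.3 FPKM in EKO and 12.6 FPKM in DKO, a difference of 0.91 on log2(FPKM + 1) (SE 0.17, adjusted p = 0.00062). Blvra, the other biliverdin reductase, on chromosome 2, was at a median of 16.1 FPKM in EKO and 16.8 FPKM in DKO, with a difference of 0.08 (SE 0.07) that did not pass the test.

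2200002D01Rik was higher in EKO. On NLD at 6 weeks, it was at 24.1, 19.9 and 21.3 FPKM in EKO and at 15.3, 12.8, 11.4 and 13.4 FPKM in DKO. On WD at 6 weeks, it was at 31.7, 15.8 and 25.8 FPKM in EKO and at 13.2, 9.21 and 12.9 FPKM in DKO. The widest spread was in EKO on WD, whose lowest library was still above the DKO libraries of its group. After 22 weeks on NLD, 2200002D01Rik was at 19.8, 22.4 and 16.9 FPKM in EKO and at 12.3, 15.5 and 9.13 FPKM in DKO. After 22 weeks on WD, it was at 24.5 and 18.7 FPKM in EKO and at 6.97, 16.9 and 11.4 FPKM in DKO. The genotypes were apart within each group but not over all libraries, since 9 of 11 EKO libraries were above every DKO library. The mean difference was 0.80 with a standard error of 0.13. This short gene overlaps the end of Yif1b on the opposite strand, and 20.7% of its stretches of 50 nt, the read length, are also in Yif1b transcripts, so reads of the pair could be mixed if the counting did not use strand, which is not given in the sources used here. Yif1b itself was at 23.5 to 53.6 FPKM in EKO and 23.3 to 40.8 FPKM in DKO.

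Zfp14 and Zfp30 were low in all aortas and higher in EKO. Zfp14 was at 5.07, 4.73 and 6.15 FPKM in EKO and at 3.01, 2.45, 2.1 and 2.56 FPKM in DKO on NLD at 6 weeks. On WD at 6 weeks, Zfp14 was at 4.48, 2.95 and 3.5 FPKM in EKO and at 1.9, 1.71 and 2.2 FPKM in DKO. Both groups were apart, and the NLD group of EKO was the highest of all 8 groups without overlap with the next. On NLD at 22 weeks, Zfp14 was at 2.67, 3.71 and 3.23 FPKM in EKO and at 2.01, 2.43 and 2.19 FPKM in DKO. Zfp14 after 22 weeks of WD was at 2.73 and 3.16 FPKM in EKO and at 1.41, 2.02 and 1.99 FPKM in DKO. The gap was narrowest on NLD at 22 weeks, 0.09 on the log2 scale, and with libraries scaled by median ratios that group overlapped. The mean difference was 0.59 with a standard error of 0.07.

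Zfp30 was at 1.51 to 2.53 FPKM over 11 EKO libraries and at 0.869 to 1.64 FPKM over 13 DKO libraries. The genotypes were apart in 3 of 4 groups and overlapped on NLD at 22 weeks, where Zfp30 was at 1.59, 2.11 and 2.53 FPKM in EKO and at 1.64, 1.63 and 1.38 FPKM in DKO. On WD at 22 weeks, the values were 1.58 and 1.93 FPKM in EKO against 1.01, 0.931 and 0.869 FPKM in DKO. The direction of the group means was the same in all 4 groups, with a mean difference of 0.37 and a standard error of 0.06, the smallest of the 8 genes.

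Of 17 other genes tested from the zinc finger list, Trim28 among them, 1 was called higher and 1 lower in EKO, where 15.8% and 2.07% of all tested genes were, and the median difference was 0.08. Zfp568, next to Zfp14, was at a median of 3.4 FPKM in EKO and 2.67 FPKM in DKO, a difference of 0.35 (SE 0.11, adjusted p = 0.036). Zfp420 was at a median of 1.66 FPKM in EKO and 2.31 FPKM in DKO, a difference of -0.31 (SE 0.06, adjusted p = 0.00083). Zfp82, on the other side of Zfp14, and Zfp84 and Zfp790, on either side of Zfp30, had differences of -0.14, 0.02 and 0.07 and were not called.

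Alkbh6 was the other member with EKO wholly below DKO in each group. In the NLD groups at 6 weeks, it was at 9.1, 11.4 and 7.83 FPKM in EKO and at 18.8, 16.2, 16.6 and 16.5 FPKM in DKO. In the WD groups at 6 weeks, it was at 13.7, 10.4 and 14.3 FPKM in EKO and at 20, 19.1 and 17.6 FPKM in DKO. The EKO libraries were below the DKO libraries in both groups. On NLD at 22 weeks, Alkbh6 was at 14.4, 13.5 and 17.0 FPKM in EKO and at 17.9, 20.3 and 19.6 FPKM in DKO. Levels on WD at 22 weeks were 8.99 and 11.9 FPKM in EKO and at 18.4, 16.4 and 15.3 FPKM in DKO. As with Blvrb, DKO was steady, with a coefficient of variation of 9.07%, and EKO was not, at 23.3%. The mean difference was -0.58 with a standard error of 0.07, and 10 of 11 EKO libraries were below every DKO library. A small RNA gene inside Alkbh6, Gm24757, holds 9.66% of its 50 nt stretches. None of the 8 other genes of the AlkB family was called, Fto and Alkbh5 among them, with a median difference of -0.02.

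Sbsn was lower in EKO, where its coefficient of variation, 37.8%, was the highest of the 8 genes, against 18.3% in DKO. It was at 1.02 to 3.6 FPKM in EKO and at 2.47 to 4.69 FPKM in DKO, and the genotypes were apart in 2 of 4 groups, both at 6 weeks. On NLD at 22 weeks, Sbsn was at 1.02, 1.69 and 3.6 FPKM in EKO and at 3.83, 3.16 and 3.34 FPKM in DKO. In the WD groups of 22 weeks, it was at 1.57 and 3.06 FPKM in EKO and at 4.3, 4.63 and 3.02 FPKM in DKO. A single EKO library crossed into the DKO range in each of these groups, and with libraries scaled by median ratios the genotypes were apart in 3 of 4. The mean difference was -0.63 with a standard error of 0.12. Sbsn overlaps Gapdhs in the annotation, and 6.96% of its 50 nt stretches are also in Tmem147os.

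A difference of 1 direction over all diets and times thus held library by library for 6 of the 8 genes, and for the group means alone in Zfp30 and Sbsn. Just inside full separation were Alkbh6 and Zfp14 with smallest gaps of 0.07 and 0.09 on the log2 scale, and just outside were Sbsn and Zfp30 with overlaps of 0.15 and 0.03, all on NLD at 22 weeks. In the 6-week groups alone, which hold none of the EKO libraries with high FPKM sums, 156 of the 12797 tested genes were apart. All 8 members were among them, but the rule that chose them used these groups too, so nothing is read from that.

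Of the 36 genes apart in all 4 groups, 26 were on chromosome 7 or 9, but 6 of these are members, which the rule chose for lying there and for this pattern. Without the members, 20 of the other 30 genes were on chromosome 7 or 9 (66.7%), which hold 13.4% of the tested genes. They were 18 of 728 tested genes on chromosome 9 (2.47%) and only 2 of 975 on chromosome 7 (0.205%). On all other placed chromosomes together, 10 of 11000 were apart (0.0909%). Taken singly, chromosomes 6 (0.48%), 10 (0.329%) and 4 (0.252%) had a larger share than chromosome 7 without members. The rest, chromosome 9 aside, had a smaller one. The members left out were chosen for this pattern, which lowers the share of chromosome 7 in advance. With them it was 7 of 982 (0.713%), so nothing is read from this order. The median size of the difference was 0.72 on the log2 scale for the 20 genes and 0.31 for the 10 elsewhere, of which Sec61b, a subunit of the protein channel of the endoplasmic reticulum, had the largest at 0.70.

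**Figure D3:**
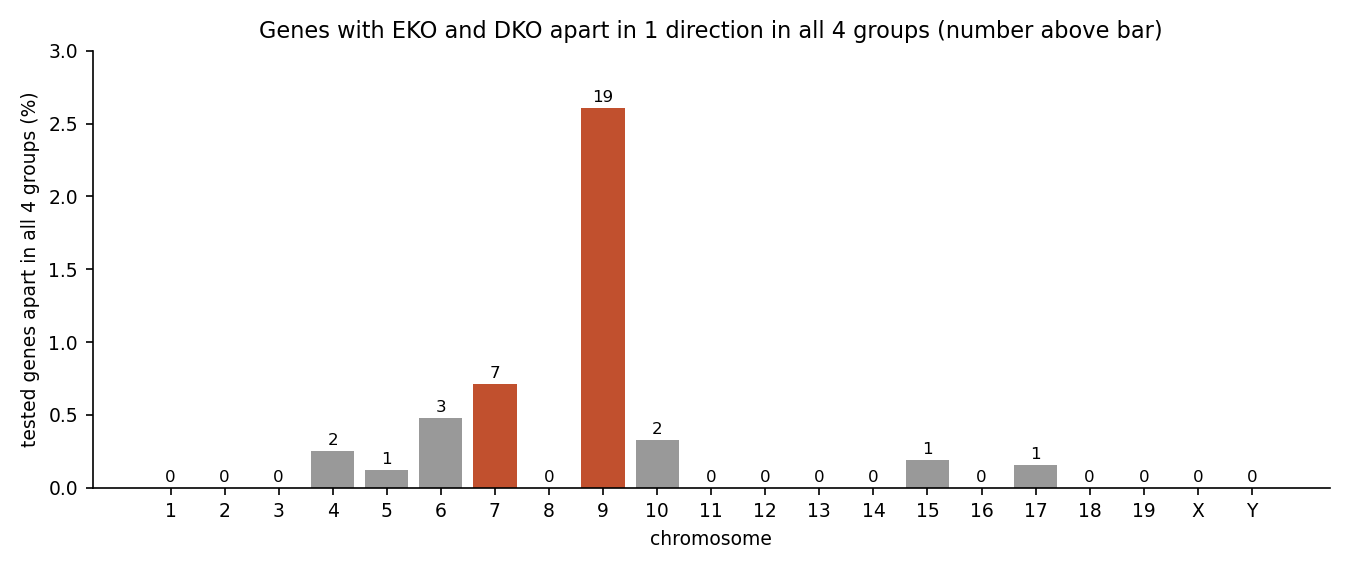
Share of tested genes in percent (vertical axis) with EKO and DKO apart in 1 direction in all 4 diet and time groups, by chromosome, with the number of such genes above each bar, members included. Chromosome 9 has 19 such genes (2.61%), 18 of them not members, and chromosome 7 has 7 (0.713%), 2 of them not members, both in orange-red.

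On chromosome 7, 5 of the 7 genes apart are members, so where these 7 lie mostly restates the choice. None of the 89 tested genes within 5 Mb of Apoe was apart and none of the 698 beyond 15 Mb, and at 5 to 15 Mb 2 of the 188 that are not members were (1.06%). These were Mrps12, a mitochondrial ribosomal protein gene 9.04 Mb from Apoe, at 13.1 to 32.1 FPKM in EKO and 24.6 to 38.2 FPKM in DKO, and 1700049G17Rik, at 0.78 to 1.42 FPKM in EKO and 1.08 to 1.85 FPKM in DKO. Both lie in the run from Blvrb to Sbsn, where the median absolute difference over 92 tested genes, members included, was 0.15 against 0.12 over all tested genes. From Apoa1 to Nnmt on chromosome 9, it was 0.26 over 9 tested genes, Nnmt included. None of the 16 tested genes directly beside a member was apart in all 4 groups.

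On chromosome 9, the pattern held in 2 places and at 1 gene between them, bounds that were drawn after the positions were seen. From 2 Mb before to 9 Mb after Apoa1, 5 of 97 tested genes other than Nnmt were apart (5.15%). Fam55d, which lies 1.93 Mb from Apoa1 and close to Nnmt, was at 1.62 to 2.96 FPKM in EKO and 0.224 to 0.995 FPKM in DKO. Il18, the cytokine interleukin 18, was at 0.967 to 3.5 FPKM in EKO and 2.74 to 5.48 FPKM in DKO, and Gldn, a gene of the peripheral nerve node, at 0.818 to 3.81 FPKM in EKO and 4.42 to 9.91 FPKM in DKO. The other 2 here were 2310030G06Rik and Trappc4, both higher in EKO. Calml4, at 16.63 Mb, was lower in EKO.

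The larger group on chromosome 9 was far from Apoa1. Between 50 and 70 Mb from it, 12 of 173 tested genes were apart (6.94%), and in all 12 EKO was above DKO. Rpl29, a ribosomal protein gene, was at 14.6 to 291.4 FPKM in EKO and 4.21 to 12.3 FPKM in DKO. Its mean difference, 3.18, was the largest of the genes apart. Its medians were 21.6 FPKM in EKO, near the low end of the range there, and 6.23 FPKM in DKO. Glb1, the lysosomal beta-galactosidase, was at 10.4 to 31.3 FPKM in EKO and 4.14 to 9.05 FPKM in DKO. Trf, the iron carrier transferrin, was at 40.8 to 142.3 FPKM in EKO and 24.7 to 77.2 FPKM in DKO, and Gpx1, a glutathione peroxidase, at 245.3 to 499.9 FPKM in EKO and 179.7 to 299.0 FPKM in DKO. Rpl29 and Glb1, like Nnmt, did not overlap between the genotypes over all libraries at once. Rpl29 has many processed copies in the genome, so its value is uncertain.

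**Figure D4:**
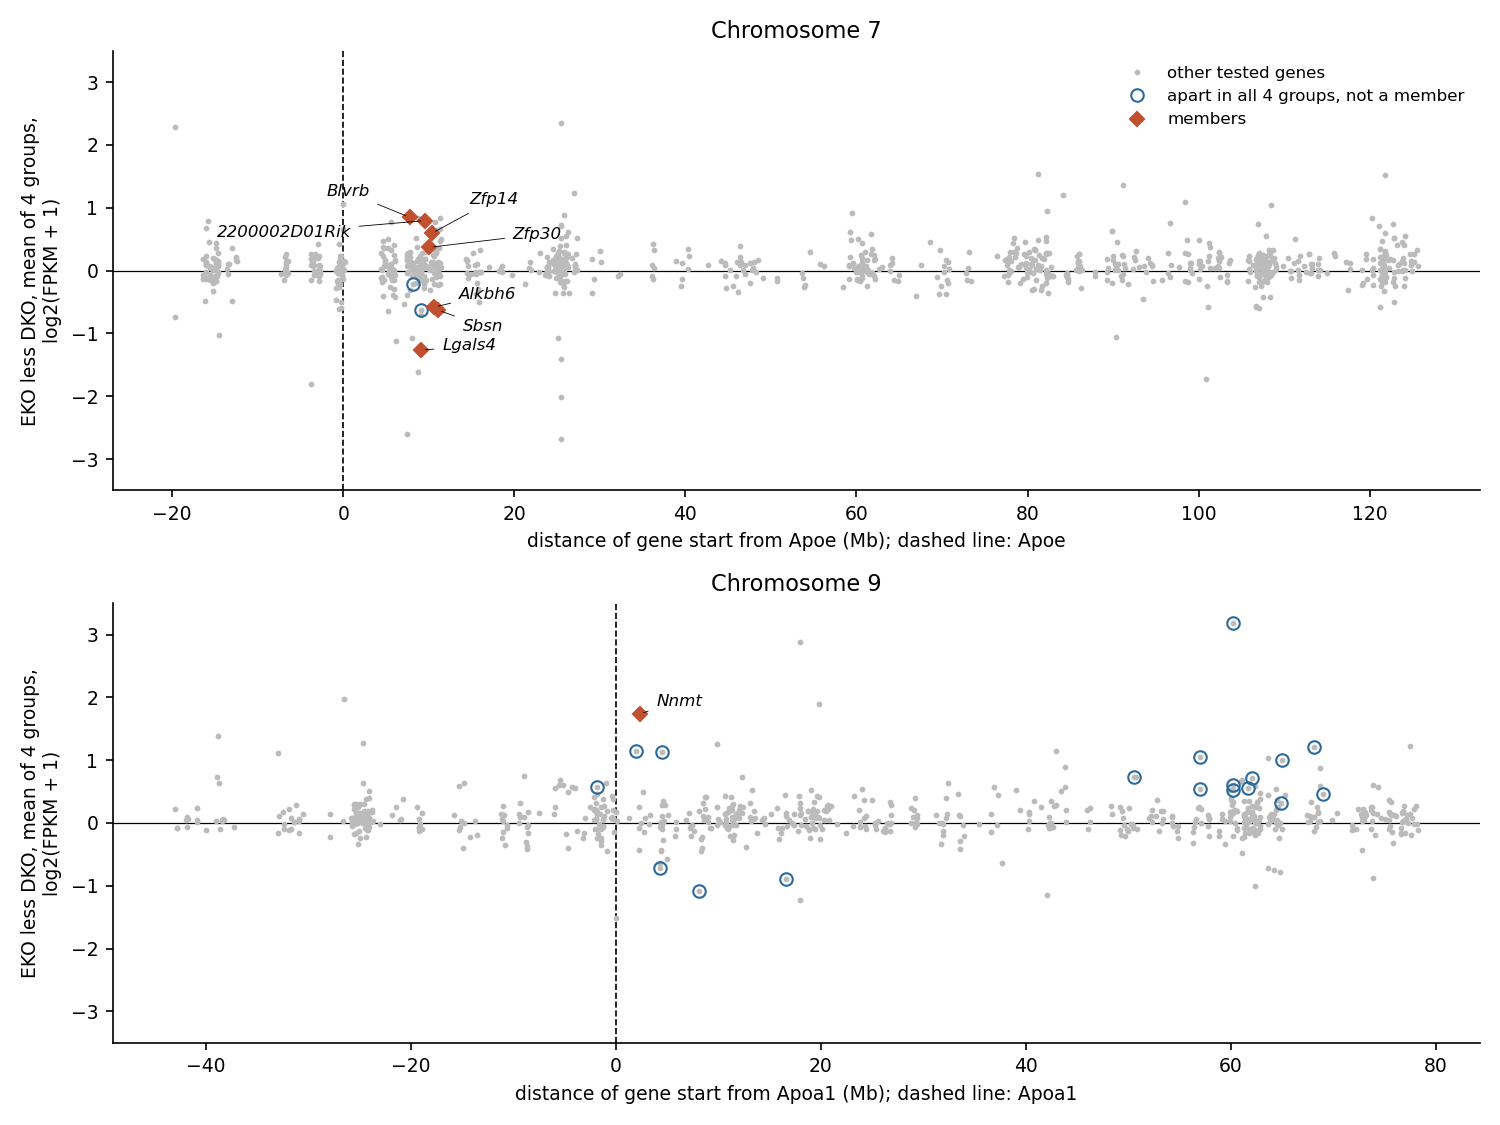
EKO less DKO difference over the mean of the 4 groups on log2(FPKM + 1) (vertical axis) of each tested gene against the distance of its start from Apoe on chromosome 7 or from Apoa1 on chromosome 9 in Mb (horizontal axis), with members as orange-red diamonds and other genes apart in all 4 groups as blue circles. Chromosome 7 has its 7 such genes between 7.75 and 10.61 Mb from Apoe, and chromosome 9 has 12 between 50 and 70 Mb from Apoa1, all above 0.

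Leaving out 1 library changed the number of genes apart by over 1.5 times in 2 cases. Without replicate 3 of DKO on NLD at 6 weeks, 63 genes were apart in all 4 groups, 13 on chromosome 7 and 20 on chromosome 9. Without replicate 1 of EKO on NLD at 6 weeks there were 58, with 8 and 22. With at least 0.5 on the log2 scale asked in each group, 12 genes were left, 3 of them members, and all 12 were on chromosomes 7 and 9.

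Genes whose levels followed the members over 24 libraries lay mostly on these chromosomes. For each member the 3 genes of highest Pearson r were taken. Of these 24, 17 (70.8%) were on chromosome 7 or 9, Alkbh6, itself a member, included. These chromosomes hold 13.4% of the tested genes. Among those for Nnmt were Fam55d (r = 0.89) and Srprb (0.87), both on chromosome 9, and Alkbh6 was most like Ccdc123 (0.87), 1500002O20Rik (0.80) and Fam98c (0.80), all on chromosome 7. Lgals4 was most like Apoc3 (0.88), an apolipoprotein gene next to Apoa1, and Blvrb was most like Ahcy on chromosome 2 (0.90). Sbsn was most like Gpatch1 on chromosome 7 (0.79), followed by Lgals6 (0.76) and Alkbh6 (0.73). These points share group and library, so that the genotype difference itself enters every r. The members were chosen for that difference, so nothing further is read from where these genes lie. Once each library was taken as its deviation from its group mean, 1 of the 24 most similar genes was on chromosome 7 or 9, Ethe1 for Alkbh6 (0.79). The highest r were those of 2200002D01Rik with Mustn1 on chromosome 14 (0.96), Cd9 on chromosome 6 (0.95) and Zfp365 on chromosome 10 (0.95). Over the 28 pairs of members, the correlation of these deviations was between -0.60 and 0.64 with a median of -0.02.

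Of 29 other genes tested from the list of nicotinamide and methyl donor metabolism, 2 were called higher in EKO and 1 lower, where 15.8% and 2.07% of all tested genes were, and the median difference was -0.06 against 0.055 over all genes. Nampt, which recycles nicotinamide to NAD, was at a median of 32.1 FPKM in EKO and 35.5 FPKM in DKO, a difference of -0.02 (SE 0.13) that did not pass the test. Ahcy, which clears the product of methyl transfer, was at 10.6 to 16.2 FPKM in EKO and 8.34 to 10.9 FPKM in DKO, a difference of 0.31 (SE 0.05, adjusted p = 9.8e-05). Cd38, an NAD glycohydrolase of leukocytes, differed by 0.44 (SE 0.09, adjusted p = 0.0027). Nt5e, which makes adenosine outside the cell, was the one called lower. It was at 1.44 to 6.77 FPKM in EKO and 4.93 to 11.1 FPKM in DKO. The difference was -1.14 (SE 0.13, adjusted p = 4.3e-06 in limma). Nt5e lies on chromosome 9, but 42.1 Mb from Apoa1, and it was not apart in all 4 groups.

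Of the 6 other galectin genes tested, Lgals1 and Lgals3 were called higher in EKO and none lower, where 15.8% of all tested genes were called higher and 2.07% lower. Lgals3, galectin-3 of macrophages, was at a median of 68.4 FPKM in EKO and 30.6 FPKM in DKO, a difference of 1.37 (SE 0.23, adjusted p = 0.00025). Of 5 macrophage markers, 3 (Cd68, Cd14 and Lyz2) were called higher in EKO, against the same background. The sum of the 5 macrophage markers was 4143.9 to 5588.2 FPKM in EKO and 913.2 to 975.5 FPKM in DKO on WD at 22 weeks, and 201.4 to 314.2 FPKM in EKO and 162.9 to 329.2 FPKM in DKO on NLD at 6 weeks. The part of macrophages in the levels of the galectins and of the 8 members was not tested.

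Within a genotype, the rule compared neither diets nor times, and these were tested in limma. The comparison of WD with NLD asks whether the genes respond to the atherogenic diet, and that of 22 with 6 weeks whether they change as the mice age on a diet. In 6 of these 8 comparisons no member was called.

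The Western diet changed 1 of the 8 genes in 1 of 4 comparisons. In EKO at 22 weeks, where 19.5% of all tested genes were called, Alkbh6 fell by 0.49 on log2(FPKM + 1) on WD (SE 0.15, adjusted p = 0.031), from 14.9 ± 1.82 FPKM (SD, n = 3) to 10.4 ± 2.04 FPKM (SD, n = 2). This call was lost when libraries were scaled by median ratios, where the difference was -0.41 (adjusted p = 0.057), and without replicate 3 of EKO on NLD or replicate 1 of EKO on WD, with adjusted p up to 0.40. In EKO at 6 weeks, where 0.336% of all genes were called, no member was, although Blvrb (0.48, SE 0.16), Zfp14 (-0.45, SE 0.14) and Alkbh6 (0.40, SE 0.14) had an unadjusted p under 0.05 in limma, with adjusted p of 0.12, 0.10 and 0.12. These 3 were called when libraries were weighted by their quality.

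In DKO, no member was called for diet. At 6 weeks, where 5.17% of all genes were called, none of the 8 had an unadjusted p under 0.05 in limma. At 22 weeks, where 1.73% were called, Nnmt (-0.65, SE 0.26, adjusted p = 0.18) and Zfp30 (-0.40, SE 0.11, adjusted p = 0.073) had an unadjusted p under 0.05, and Zfp30 was called with weighted libraries. The 95% interval for the diet difference of Nnmt in EKO at 6 weeks was -0.34 to 0.75, and thus spans changes in both directions.

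Of the 8 genes, 3 were called for time in EKO on NLD, where 36.7% of all tested genes were called. The 5 complete EKO libraries at 22 weeks also had higher FPKM sums and Ppia levels than the other 19. In EKO, time and this difference between libraries cannot be told apart. Blvrb rose by 0.93 (SE 0.16, adjusted p = 0.00048), from 37.4 ± 3.1 FPKM (SD, n = 3) at 6 weeks to 73.0 ± 14.3 FPKM (SD, n = 3) at 22 weeks. Alkbh6 rose by 0.62 (SE 0.14, adjusted p = 0.0024), from 9.44 ± 1.79 to 14.9 ± 1.82 FPKM (SD, n = 3 each). Zfp14 fell by 0.59 (SE 0.14, adjusted p = 0.0035), from 5.32 ± 0.739 to 3.2 ± 0.524 FPKM (SD, n = 3 each). In each of the 3 genes, the ranges at 6 and 22 weeks did not overlap. Here the median over all genes was 0.117 as deposited and -0.003 after scaling by median ratios. Relative to that shift, the changes were 0.79 for Blvrb (SE 0.15, adjusted p = 0.0011), 0.48 for Alkbh6 (SE 0.13, adjusted p = 0.0098) and -0.71 for Zfp14 (SE 0.14, adjusted p = 0.0015).

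In EKO on NLD, red cell markers rose over time as Blvrb did. Their summed level in EKO on NLD was 4808.4 to 5741.4 FPKM at 6 weeks and 10989.9 to 24506.3 FPKM at 22 weeks, with no overlap, and in DKO on NLD 1648.1 to 6204 FPKM and 1727 to 5301.6 FPKM. On WD in EKO, the sum was 4786.6 to 7694.9 FPKM at 6 weeks and 8485.3 to 14376.4 FPKM at 22 weeks. Blvrb changed there by 0.15 (SE 0.18) and was not called. On WD in DKO, the sum was 1856.4 to 3047.1 FPKM and then 1961.9 to 15361.4 FPKM, while Blvrb changed by 0.01 (SE 0.16). The part of red cells in the change of Blvrb with time was not tested. The sum of the 5 adipocyte markers, led by Fabp4, was 3426.5 to 5707 FPKM in EKO on NLD at 6 weeks and 7853.2 to 14477.7 FPKM at 22 weeks, and that of the 3 brown fat markers 613.7 to 922.3 FPKM and 2178.3 to 4055.8 FPKM. The sum of the 5 macrophage markers went from between 201.4 and 314.2 FPKM to between 676.3 and 983.4 FPKM, and that of the 4 smooth muscle markers went from between 6209.9 and 7667.8 FPKM to between 2701.7 and 4017.5 FPKM, both without overlap. The part of these cell types in the changes of Blvrb, Alkbh6 and Zfp14 was not tested.

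In the 3 other time comparisons no member was called. In DKO on NLD, where 0.0547% of all genes were called, Nnmt (0.53, SE 0.24) and Lgals4 (0.51, SE 0.23) had an unadjusted p under 0.05 in limma, each with an adjusted p of 0.68. In EKO on WD, where 19.2% were called, and in DKO on WD, where 0.219% were called, none of the 8 had an unadjusted p under 0.05. Whether EKO and DKO changed differently was tested directly, for diet at each time and for time on each diet. These tests compare the EKO less DKO differences, which are the values that the rule used. It asked for 1 direction in every group, which leaves out genes whose difference turns around. Nothing is therefore read from a lack of calls. No member was called in these 4 tests, in which 0.0313% (diet at 6 weeks), 4.39% (diet at 22 weeks), 3.88% (time on NLD) and 8.98% (time on WD) of all genes were. Nearest was Blvrb on NLD, whose change with time was larger in EKO by 0.77 (SE 0.22, adjusted p = 0.066). For Nnmt, the change with time on NLD was 0.51 in EKO and 0.53 in DKO, and the interval of the difference, -0.76 to 0.73, covers changes of either direction.

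**Figure D5:**
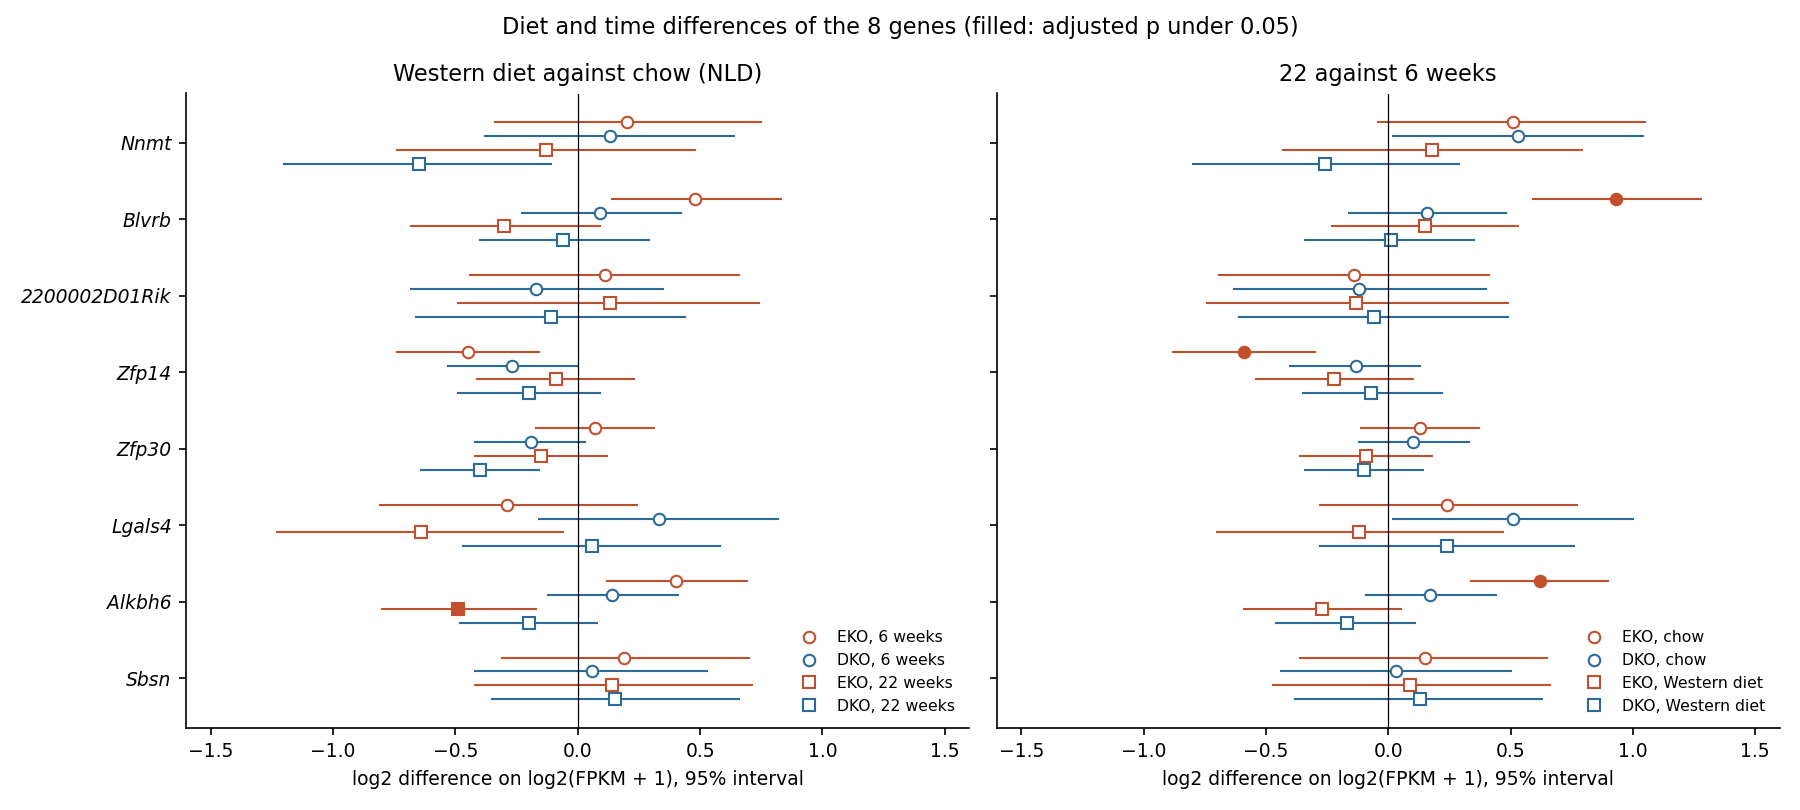
Difference on log2(FPKM + 1) (horizontal axis, with 95% intervals as lines) for WD against NLD (left) and for 22 against 6 weeks (right) of each of the 8 genes, with EKO in orange-red, DKO in blue, circles for 6 weeks or chow and squares for 22 weeks or Western diet. Filled symbols mark adjusted p under 0.05, which are Alkbh6 at -0.49 on the left and Blvrb at 0.93, Zfp14 at -0.59 and Alkbh6 at 0.62 on the right, all in EKO.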

How the data were processed

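Whole aortas of EKO and DKO mice were sequenced as unpaired reads of 50 nt. The authors aligned them to mm10 and deposited the cufflinks FPKM of 23284 genes in 25 libraries as 1 table. Among the tools in their processing notes are TopHat 1.3.2, Cuffdiff, SAMtools 0.1.19 and Bowtie 0.12.8. The cufflinks version, the gene models and the use of strand are not given in the sources used here. Labels do not say whether replicates are separate animals, so p-values measure the spread between these samples.

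Zeros of the incomplete library were taken as missing (8775 of 12797 tested genes). Testing was limited to genes whose mean over the libraries reached 1 FPKM and was done on log2(FPKM + 1), pseudocount 1, in limma 3.58.1 (R 4.3.3) with 1 mean per group over all libraries, moderated variances with trend and robust estimation, and Benjamini-Hochberg adjustment over all tested genes, called under 0.05. The direct tests of unequal change between genotypes were added after the first fits. Correlations and counts of genes apart used the 24 other libraries. Tested genes were placed on mm10 by RefSeq symbol (11513) or synonym (1198), and 86 were not placed. No library pair had identical values. The fit was tested on simulated data. Genes named are the members, Apoe, Apoa1, list members, the 3 genes most like each member and the genes apart in all 4 groups with the largest differences. Lgals6, Mrps12, 1700049G17Rik, Trappc4, Yif1b, Hbb-b2 and other genes apart in all 4 groups outside that rule were chosen after their values were seen. A gene that the rule names is not reported here. The members and gene lists were chosen with earlier results of these data known. Alternatives were pseudocounts of 0.1 and 5, filters, scaling, library weights, zeros as deposited, a replicate block and leaving out each library.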

Additional observations from a re-analysis of the deposited data

How the results depend on the processing

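Taking the zeros of the incomplete library as deposited turned the EKO less DKO difference on WD at 22 weeks to -1.01 for Blvrb, -0.16 for Zfp14 and -0.60 for 2200002D01Rik, left 0 members called for time in EKO on NLD and 0 for diet in EKO at 22 weeks, and left 3 list genes called over the mean genotype difference instead of 9. That setting replaces 1 of 3 values by 0, and no other setting that was checked reversed a genotype difference of a member. Filters and library weights were not checked for this. The count of members called for diet in EKO at 22 weeks, 1 as reported, was 0 with median-ratio scaling and 0 with library weights. Weights gave 3 members for diet in EKO at 6 weeks and 1 in DKO at 22 weeks. Genes apart in all 4 groups numbered 12 with a difference of at least 0.5 asked in each, 2 on chromosome 7 and 10 on chromosome 9. In the 6-week groups alone, an alternative chosen after seeing the data, 156 genes were apart, the 8 members among them, 22 on chromosome 7 and 32 on chromosome 9. The causes of these moves were not tested.

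Leaving out 1 library at a time gave 0 to 3 members called for diet in EKO at 22 weeks, the 3 without replicate 3 of EKO on WD (Lgals4, Blvrb and Alkbh6), where the lone library left is assumed to vary like the other groups. It gave 3 members called for time in EKO on NLD under each omission, 7 to 12 list genes called, and 36 to 63 genes apart, 7 to 13 on chromosome 7 and 19 to 22 on chromosome 9. The other 5 diet and time comparisons with 0 members called, and that of diet in DKO at 22 weeks, kept 0 under every omission.

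Samples were not paired by their replicate number. In 84 pairs that share one, deviations correlated with a median r of 0.029 (-0.393 to 0.406), and 7 of 25 libraries correlated best with their own number. With a replicate block, 2 members were called for diet in EKO at 22 weeks, Lgals4 and Alkbh6, and the other counts kept within 1.5 times their values.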
